A study of Oryctolagus cuniculus with 4 samples.

Results

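The genes described here are 10 symbols grouped for muscle fibres that are developing, regenerating or without a nerve: MYH3, MYH8, MYL4, TNNT2 and MYBPH of the sarcomere, CHRNG, CHRND and CHRNE of the acetylcholine receptor, and NCAM1 and NES. CHRNE belongs to the adult receptor and is set against CHRNG, and CHRND, NCAM1 and NES are not confined to such fibres. All were chosen by symbol, as 10 of 20294 genes in the count table, after the levels of these genes in the same 4 tendons had been seen. Their levels, the ratio of CHRNG to CHRNE and the standing of tendon 4 are therefore a description, with no p-value. An exact two-sided sign-flip test over 4 tendons could in any case not go below p = 0.125. The tissue was the intact semitendinosus tendon, a hamstring tendon used as a graft, from 4 female New Zealand White rabbits aged 193 days. All 4 tendons formed 1 group with no treatment and no control arm. The tendon surface had been cleared of muscle with a scalpel blade before freezing, and poly(A) RNA was sequenced. No nerve injury, graft or disease is named in the labels for any of them.

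Muscle fibres exchange contractile proteins as they mature. Embryonic and perinatal myosin heavy chains, MYH3 and MYH8, are made first and are later replaced by adult slow or fast chains, and fibres that regenerate make them again. The acetylcholine receptor, the ion channel through which nerve signals excite muscle, carries the gamma subunit encoded by CHRNG in fetal and denervated fibres and the epsilon subunit encoded by CHRNE at the adult junction. CHRND encodes the delta subunit, which both forms contain. The junction between muscle and tendon is a site where NCAM1 and NES are known to be expressed in adult muscle.

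Each tendon had between 19759696 and 30646052 estimated counts. All 10 genes had at least 3 estimated counts in every tendon and averaged at least 1 CPM, a count scaled to the same library total. Levels are given in TPM, a scale that also corrects for transcript length, so that genes can be compared. Tendons are compared on CPM scaled by the TMM method of edgeR, and genes averaging at least 1 CPM serve as the background. Tendon 4 stood apart from the other tendons in many muscle genes, so values without it are given beside the results. The adult fast fibre list was highest in tendon 4 for 8 of 8 genes of that background, and its summed level was 36.2, 127, 58.1 and 3622 TPM in tendons 1 to 4. Genes common to all adult fibres were highest in tendon 2 for 13 of 17 genes and lowest in tendon 1 for 17 of 17, with sums of 6683, 26210, 13645 and 18431 TPM. In such bulk tissue, fewer muscle fibres and less RNA per fibre cannot be told apart.

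Of the 10 genes, 9 were highest in tendon 4, and CHRNE was the exception. Over the 12690 genes of the background, 23.2% were highest in tendon 4, or 38.8% with scaling to the library total alone, under which the 9 genes were still highest there. Tendon 1 was the lowest for 7 of the 10 (MYL4, TNNT2, MYBPH, CHRNG, CHRND, NCAM1 and NES), against 31.4% of all genes. In 7 of the 10 genes, tendon 4 was at least 2 times each other tendon, against 2.24% of all genes. This threshold was chosen after the values were seen. In 6 of the 10, the highest tendon was at least 4 times the lowest, against 4.40% of all genes. Without tendon 4, 5 of these 6 still spanned at least 4-fold over tendons 1 to 3, against 2.32% of all genes, so the spread did not rest on tendon 4 alone. Such a spread was not particular to the 10 genes. Over all 4 tendons, 13 of 17 genes common to adult fibres spanned at least 4-fold, as did 7 of 8 slow and 8 of 8 fast fibre genes.

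**Figure D1:**
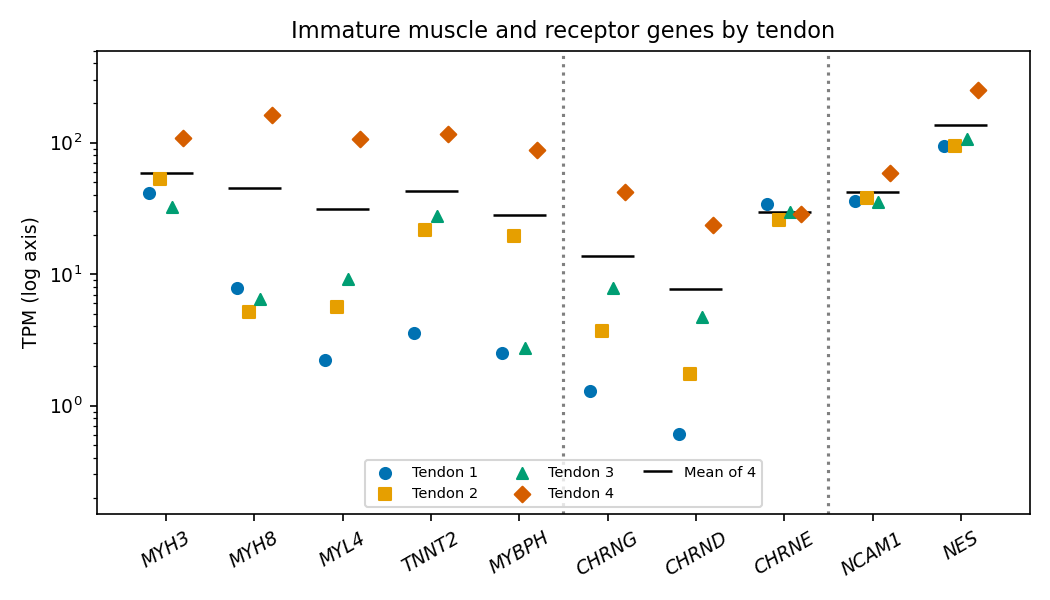
Level (TPM, log axis) of the 10 genes, with 1 symbol for each tendon and a bar at the mean; dotted lines separate sarcomere, receptor, and surface and filament genes. Tendon 4 is highest for all genes except CHRNE, which lies between 26.0 and 34.0 TPM, and the 5 sarcomere genes come together between 88.1 and 162 TPM in tendon 4.

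Both developmental heavy chains were present in every tendon, and they differed in how they varied. MYH3, the embryonic chain (ENSOCUG00000004509.2, OryCun2.0 chromosome 19, 8926816 to 8951748), reached levels of 41.5, 52.7, 32.4 and 109 TPM in the order of the tendons and averaged 58.8 ± 34.2 TPM (SD, n = 4). Tendon 4 was 1.80 times the next highest tendon in TMM-scaled CPM, and the other 3 tendons lay within 1.81-fold of each other. MYH8, the perinatal chain (ENSOCUG00000010229.2, chromosome 19, 9145213 to 9173315), had 7.79, 5.14, 6.51 and 162 TPM. Its level was low and even in tendons 1 to 3, which lay within 1.32-fold, and tendon 4 was 20.9 times the highest of them.

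The order of the 2 chains accordingly turned over in tendon 4. MYH3 exceeded MYH8 5.33-, 10.2- and 4.98-fold in tendons 1 to 3, and in tendon 4 MYH8 exceeded MYH3 1.50-fold. The mean log2 ratio was 1.88 ± 1.70 (SD, n = 4) over all tendons and 2.70 ± 0.58 over tendons 1 to 3. Among the named heavy chain genes of the chromosome 19 cluster that were compared (MYH3, MYH8 and the adult fast genes MYH2 and MYH1), MYH3 held 82.9%, 88.3% and 80.3% of the summed TPM in tendons 1 to 3. In tendon 4 it held 17.8%, with 26.6% for MYH8, 39.3% for MYH2 and 16.3% for MYH1. The summed TPM of these 4 chains was 50.1, 59.7, 40.3 and 611. MYH7, the slow heavy chain, and MYH4, another adult fast chain, had no entry under those symbols. The percentages are therefore shares of 4 genes and not of all myosin. Heavy chain genes of this cluster are close in sequence and the way shared reads were divided among them is not given in the sources used here, so the split between them is uncertain.

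The thin filament and light chain genes were scarce in tendon 1. MYL4, the light chain of embryonic muscle and the cardiac atrium (chromosome 19, 46660458 to 46674214), had 2.21, 5.63, 9.24 and 107 TPM. Tendon 4 was 11.2 times the next, and tendons 1 to 3 spanned 4.33-fold. TNNT2, cardiac troponin T, which embryonic skeletal muscle also makes (chromosome 16, 70142488 to 70151796), had 3.55, 21.7, 27.9 and 117 TPM. Tendon 1 was the low tendon for it, with 38 estimated counts, and tendons 1 to 3 spanned 8.13-fold. Against their adult counterparts, MYL4 remained below the fast light chain gene MYL1, at 0.119, 0.122, 0.267 and 0.0870 times its TPM. MYL4 was also below MYL3, the slow light chain gene, at between 0.00191 and 0.0514 times. TNNT2 was 5.79, 22.4 and 69.6 times TNNT3, fast troponin T, in tendons 1 to 3 and 0.504 times in tendon 4; TNNT3 had 10 estimated counts in its lowest tendon, so the first ratios are imprecise. TNNT1, slow troponin T, had no entry under that symbol.

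MYBPH followed another order. This gene, for a myosin binding protein of the thick filament (chromosome 16, 68604324 to 68611475), had 2.52, 19.4, 2.72 and 88.1 TPM. Tendons 2 and 4 were the high ones and tendons 1 and 3 were close to each other. It stayed below MYBPC1, the slow myosin binding protein C gene, at 0.00889, 0.0216, 0.00492 and 0.125 times its TPM. MYBPC2, the fast form, had no entry. CHI3L1 lies 414 bases from MYBPH on the same strand, with 286, 383, 338 and 2023 estimated counts in tendons 1 to 4. Whether its reads entered the counts of MYBPH was not tested.

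The fetal and adult receptor subunits behaved differently across the tendons. CHRNG (ENSOCUG00000024541.2, OryCun2.0 scaffold GL018736, 149105 to 154397) reached 1.29, 3.66, 7.85 and 42.2 TPM in turn, averaging 13.8 ± 19.2 TPM (SD, n = 4), or 4.27 ± 3.32 TPM over tendons 1 to 3. The 4 tendons stood well apart, and tendon 4 was 5.20 times tendon 3 in TMM-scaled CPM. The value in tendon 1 rested on 33 estimated counts, for which the exact 95% Poisson interval is 0.890 to 1.82 TPM, counting error only. CHRNE (ENSOCUG00000010231.2, chromosome 19, 12417817 to 12421746) had 34.0, 26.0, 29.9 and 28.5 TPM, a mean of 29.6 ± 3.36. Its highest tendon was 1.19 times its lowest, and 59.3% of all genes had a range of at most 1.5-fold, so an even level was common among genes.

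CHRNE therefore exceeded CHRNG in tendons 1 to 3, and CHRNG exceeded CHRNE in tendon 4. The ratio of CHRNG to CHRNE was 0.0380, 0.141, 0.263 and 1.48 in tendons 1 to 4. The mean log2 ratio was -2.23 ± 2.20 (SD, n = 4), and -3.16 ± 1.42 over tendons 1 to 3. In TPM, this ratio spanned 39.0-fold, CHRNG 32.7-fold and CHRNE 1.31-fold. The summed TPM of genes common to adult fibres spanned 3.92-fold. Relative to that sum, CHRNE stood at 0.509%, 0.0992%, 0.219% and 0.155% in tendons 1 to 4. In the annotation it overlaps C17orf107 on the other strand, which had 4, 4, 6 and 6 estimated counts, and MINK1 lies 1069 bases away on the other strand with between 1987 and 2585. The use of strand in counting is not given, so reads of CHRNE and an overlapping transcript cannot be told apart.

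**Figure D2:**
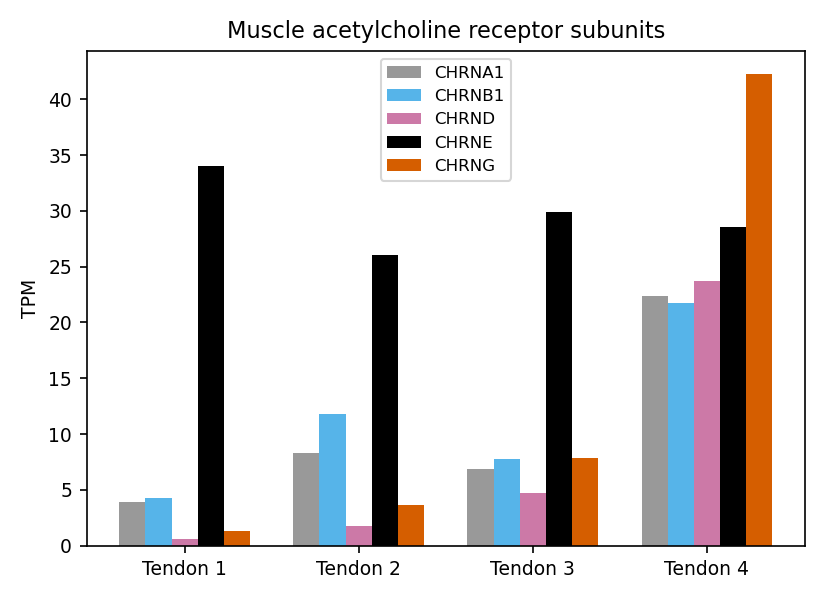
TPM of the 5 muscle acetylcholine receptor subunit genes (bars, 1 value per tendon) in tendons 1 to 4. CHRNE is the tallest bar in tendons 1 to 3, and CHRNG is the tallest in tendon 4 at 42.2 TPM.

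CHRND, the delta subunit gene, lies 1553 bases from CHRNG on the same scaffold and strand (140362 to 147552) and had 0.603, 1.74, 4.73 and 23.7 TPM. PRSS56 lies 61 bases from CHRND on that strand, with 106, 77, 204 and 137 estimated counts in tendons 1 to 4. Whether its reads entered the counts of CHRND was not tested. CHRNG was 2.14, 2.10, 1.66 and 1.78 times CHRND, so this ratio stayed within a narrow range while both genes spanned far more, 32.7-fold for CHRNG and 39.4-fold for CHRND in TMM-scaled CPM. The other subunits, which both forms of the receptor share, spanned less. CHRNA1, the alpha subunit that binds acetylcholine, had 3.90, 8.29, 6.87 and 22.3 TPM, and CHRNB1, the beta subunit, 4.23, 11.8, 7.80 and 21.7 TPM. Of the summed TPM of the 5 subunit genes, CHRNE held 77.2%, 50.5%, 52.3% and 20.6% in tendons 1 to 4, and CHRNG held 2.93%, 7.11%, 13.7% and 30.5%.

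NES and NCAM1 had high and even levels in tendons 1 to 3. NES, nestin, an intermediate filament gene of muscle precursors, also active in nerve and vessel cells (chromosome 13, 36260056 to 36267496), had the highest mean of the 10 genes at 136 ± 77.4 TPM, with 93.7, 93.6, 106 and 252 TPM. Tendon 4 was 2.31 times the next highest tendon. NCAM1, a cell adhesion gene of muscle, nerve and Schwann cells (chromosome 1, 103075145 to 103403709), had 36.1, 38.1, 35.4 and 59.2 TPM. Tendon 4 was 1.35 times the next. Markers of the other cell types were present: the Schwann cell and nerve list summed to 400, 357, 400 and 345 TPM in tendons 1 to 4, with 4 of 16 genes highest in tendon 4, and the endothelial list to 295, 351, 469 and 445 TPM, with 4 of 11. SOX10, a defining Schwann cell gene, had 0.138, 0.216, 0.392 and 0.358 TPM. The part of these cells in NES and NCAM1 was not tested.

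By mean TPM the genes were ordered NES, MYH3, MYH8, TNNT2, NCAM1, MYL4, CHRNE, MYBPH, CHRNG and CHRND. Only the first and the last neighbours kept their order in 4 of 4 tendons: NES was above MYH3 and CHRNG above CHRND. The other 7 neighbouring pairs changed places in at least 1 tendon, and each had a mean difference below the SD of that difference over tendons. The mean difference was also below its SD for CHRNG over CHRND, at 6.05 ± 8.35 TPM. For NES over MYH3 it was above, at 77.5 ± 46.0 TPM. The order rested in part on tendon 4. Over tendons 1 to 3 it was NES, MYH3, NCAM1, CHRNE, TNNT2, MYBPH, MYH8, MYL4, CHRNG and CHRND, with MYH8 at 6.48 ± 1.33 and CHRNE at 30.0 ± 4.02 TPM.

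Relative to the RNA of genes common to adult fibres, the 10 genes fell into different patterns. The 10 genes together took 0.0223%, 0.0268%, 0.0262% and 0.0990% of all TPM in tendons 1 to 4, averaging 0.0436% ± 0.0370 (SD, n = 4), or 0.0251% without tendon 4. Set against the summed TPM of the 17 adult fibre genes, MYH3 stood at 0.622%, 0.201%, 0.237% and 0.589%, as high in tendon 1 as in tendon 4. NES stood at 1.40%, 0.357%, 0.775% and 1.37%, again with tendons 1 and 4 alike. In contrast, MYH8 stood at 0.117%, 0.0196%, 0.0477% and 0.882%, and CHRNG at 0.0193%, 0.0140%, 0.0575% and 0.229%. Tendon 4 remained the highest on this scale for MYH8, MYL4, TNNT2, MYBPH, CHRNG and CHRND, between 3.12 and 8.61 times the next tendon, and not for MYH3, NES, NCAM1 and CHRNE. The scale holds no gene of the adult fast fibre list, but it holds MYOZ2 and CASQ2, which are also in the slow fibre list. In TPM, MYH8 was 14.2, 5.58, 6.46 and 0.676 times MYH2 in tendons 1 to 4. The ratios of MYL4 to MYL1 and of TNNT2 to TNNT3 were likewise lowest in tendon 4. Against the slow genes MYL3 and MYBPC1, the ratios of MYL4 and MYBPH were highest in tendon 4.

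**Figure D3:**
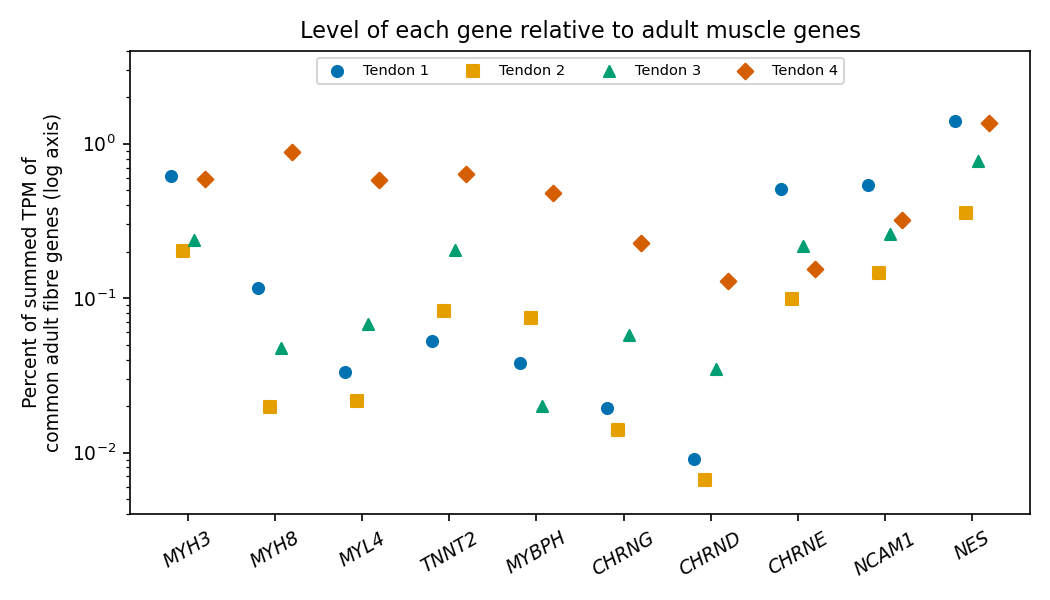
TPM of each gene as a percent of the summed TPM of 17 genes common to adult fibres (log axis) in tendons 1 to 4. The 6 genes from MYH8 to CHRND are highest in tendon 4, while MYH3 and NES have tendons 1 and 4 at nearly the same height.

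The genes listed for the sarcomere of immature fibres split between tendons 2 and 4, and not all of them are confined to such fibres. TNNI1 is also in the slow fibre list, in which 7 of 8 genes were highest in tendon 2. ACTA2 is also in the pericyte and smooth muscle list. Of 15 symbols listed, 12 had an entry, all within the background, 6 were highest in tendon 4 and 6 in tendon 2 in TMM-scaled CPM; 5 of the 12 are the sarcomere genes above. ACTC1, cardiac actin, which embryonic skeletal muscle makes, had 76.4, 326, 249 and 887 TPM and joined them in tendon 4. MYL6B, a light chain gene of slow muscle, had 665, 2863, 1587 and 1983 TPM, and TNNI1, slow troponin I, 1219, 4324, 2165 and 2454 TPM. CSRP3, MYBPC1 and MYH7B were also highest in tendon 2, at means of 203 ± 106, 610 ± 259 and 34.6 ± 10.7 TPM (SD, n = 4). ACTA2, smooth muscle actin, changed place with the scale. It was highest in tendon 2 in TMM-scaled CPM, where tendon 4 was 0.993 times tendon 2, and highest in tendon 4 in TPM, at 84.5, 120.2, 122 and 137 TPM in tendons 1 to 4. MYL5, MYH6 and IGFN1 had no entry.

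Among the genes of the myogenic programme and of the response to denervation, the median difference between tendon 4 and the mean of the others was higher than for all genes. This was not particular to them. The median log2 difference was 0.96 for the macrophage and leukocyte list and 5.42 for the fast fibre list. It was -0.05 for slow fibre and -0.82 for tenocyte genes. In the satellite cell and myogenic list, 8 of 11 genes were highest in tendon 4, with a median log2 difference of 0.81 against -0.02 for all genes. MYOD1, a transcription factor gene of muscle commitment, had 0.821, 3.06, 1.74 and 12.8 TPM, and MYOG, which drives differentiation, had 1.37, 6.66, 2.24 and 17.3 TPM. PAX7, the satellite cell gene, had 0.140, 1.23, 0.691 and 3.01 TPM, with tendon 4 at 2.14 times the next. In the denervation list, 12 of 15 genes were highest in tendon 4 (median log2 difference 0.95). MYOD1, MYOG, CHRNA1, the stretch-responsive gene ANKRD1 and the potassium channel gene KCNN3 were at least 2 times each other tendon. SLN, sarcolipin, had the highest mean of this list, with 116, 290.3, 146 and 568 TPM. The ubiquitin ligase genes TRIM63 and FBXO32, known for their part in muscle wasting, were 1.04 and 1.17 times the next highest tendon in tendon 4. RUNX1, CDKN1A and PRKCQ were the 3 genes of the list that were not highest in tendon 4.

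The junction lists differed from each other. In the neuromuscular junction list without the receptor genes, 6 of 15 genes were highest in tendon 4, with a median log2 difference of 0.04. MUSK, the receptor kinase that organises the junction, had 1.28, 2.70, 2.97 and 7.72 TPM, whereas RAPSN, which clusters the receptor, had 9.35, 12.9, 11.6 and 16.5 TPM. LAMB2, a basement membrane laminin gene, had the highest mean, 313 ± 50.3 TPM. In the myotendinous junction list, which holds NCAM1 and NES, 10 of 15 genes were highest in tendon 4, with a median of 0.70. COL22A1, a collagen of that junction, had 45.9, 61.5, 52.3 and 114 TPM, ITGA7, a laminin receptor chain, 39.6, 73.6, 67.9 and 168 TPM, and POSTN, periostin, which fibroblasts also make, 327, 282, 246 and 1312 TPM.

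**Figure D4:**
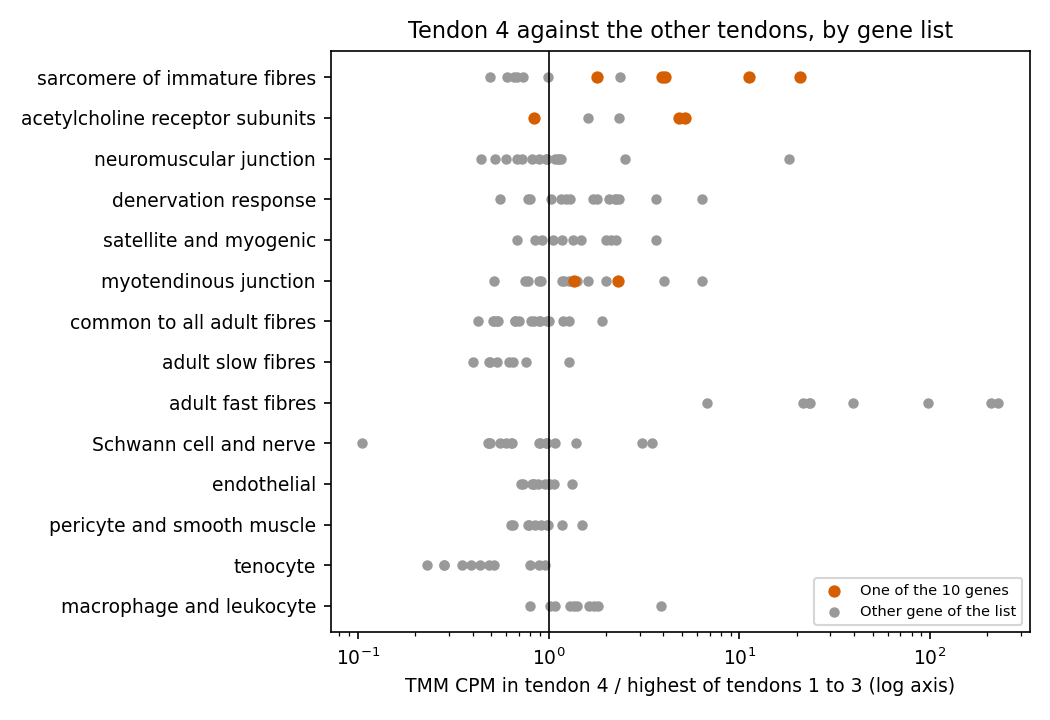
TMM-scaled CPM in tendon 4 divided by the highest of tendons 1 to 3 (log axis) for each gene of the background, by list; coloured points are the 10 genes and the line marks equal levels. Fast fibre genes lie between 6.80 and 227, and all 11 tenocyte genes lie left of the line.

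Of the marker lists of other cells, that of macrophages and leukocytes moved with tendon 4. Its genes were highest there for 9 of 10, against 23.2% of all genes, with sums of 94.6, 74.6, 177 and 233 TPM, led by C1QC at 26.6 ± 13.8 TPM. Pericyte and smooth muscle genes were highest in tendon 4 for 2 of 10, and tenocyte genes for 0 of 11, with sums of 66266, 49841, 32758 and 29359 TPM. Slow fibre genes were highest there for 1 of 8. The part of any of these cells in the levels of the 10 genes was not tested.

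The genes whose levels over the 4 tendons lay nearest were sought for the 6 genes with a 4-fold range, as the smallest root mean square distance of centred log2(CPM + 1) among 7299 other named genes averaging at least 10 CPM. CHRNG and CHRND were each other's nearest, at 0.09. After them came HLA-DRA at 0.28 from CHRNG and CD74 at 0.35, both genes of antigen presentation, for which the tendons stood in the same order. MYL4 lay nearest to CHRNG (0.40), CHRND (0.44) and GPD1 (0.53), and TNNT2 to CHRNG (0.41), ACTC1 (0.43) and TCEAL7 (0.44). MYBPH lay nearest to ATP2A1 (0.46), the calcium pump gene of fast fibres, MYOZ1 (0.62) and GPD1 (0.85). MYH8 lay nearest to ACTN3 (0.50), fast fibre alpha-actinin, then APOD (0.69) and MYL1 (0.69). With 4 tendons such nearness only describes these samples.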

How the data were processed

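The authors deposited estimated counts for each transcript, 1 column per tendon, with no scaling for depth or length. The submitters' processing notes name kallisto 0.42.4, bcl2fastq, FastQC and OryCun2.0 but not what each was used for. Any filter, and whether counting used strand, is not given in the sources used here. Transcript lengths and coordinates are as deposited, per the file headers. Each of the 10 genes had 1 transcript.

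Counts were summed per gene. TPM was computed from estimated counts and annotated lengths. CPM was scaled by TMM in edgeR 4.0.16 (R 4.3.3) on rounded counts; DESeq2 1.42.0 size factors were an alternative. The background of shares over all genes was the 12690 genes averaging at least 1 CPM. Counts for each pair of tendons differed by more than counting noise (chi-square per degree of freedom of at least 103), so no pair was treated as 1 library. Tested on simulated data, the 4-fold range was called for 100% of 200 genes changed 8-fold in tendon 4 and 0.048% of 12490 unchanged genes. The simulated spread between tendons was assumed and scaling was to library totals. Since 4.40% of measured genes passed, the simulation checks the calculation only and does not describe the spread of these tendons. Python 3.11.15, numpy 2.4.6, pandas 2.3.3, scipy 1.17.1 and matplotlib 3.10.9 were used otherwise.

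The 10 genes and all gene lists were chosen with earlier results of these data known. Named genes were the 10, the listed receptor and immature sarcomere genes, adult counterparts, the highest gene of each list (values printed where a result turns on them), the nearest 3 genes by distance and genes behind small counts; some further list genes were named after their values were seen, and 1 listed gene is not reported here. Alternatives were CPM, other pseudocounts, filters and scalings, and leaving out single tendons.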

Additional observations from a re-analysis of the deposited data

Results flagged for a closer look

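In a group of 4, a tendon was taken to stand apart where its gap to the nearest other tendon, divided by the range, passed Dixon's 95% critical value. It passes about 1 in 20 groups by chance. These genes were chosen with their levels in the same tendons known, so the values that passed are a description and support nothing. Of 13 values in TPM or as ratios, 6 passed. Tendon 4 was the highest for each of the 6: MYH8 (0.983), MYL4 (0.933), CHRNG (0.840), NCAM1 (0.886) and NES (0.924) in TPM, and the summed TPM share of the 10 genes (0.942). On log2(TMM CPM + 1), 2 of 10 genes passed, MYH8 at 0.919 and NES at 0.843, so the standing of MYL4, CHRNG and NCAM1 depended on the scale.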

How the results depend on the processing

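The summed share of the 10 genes moved from 0.0436% of TPM to 0.0970% of CPM, which gives long transcripts more weight, and it was 2.91% of the summed TPM of adult fibre genes, another denominator. The other 44 alternative values of the summary results stayed within the spread between tendons or within 1.5 times the count. This rule was loose. A mean with 1 of 4 tendons left out cannot move by more than the SD over tendons. For the median of the 10 mean levels, the spread used was 41.9 TPM, more than the median itself. Genes highest in tendon 4 stay so when another tendon is left out. With each tendon left out in turn, the mean log2 ratio of CHRNG to CHRNE lay between -3.16 and -1.40 and that of MYH3 to MYH8 between 1.38 and 2.70. The median of the 10 mean levels was 36.7 TPM and lay between 12.96 (without tendon 4) and 42.5 TPM. Genes with at least 2-fold higher levels in tendon 4 were 7 with TMM or DESeq2 scaling and 8, MYH3 included, with library totals. The highest transcript alone gave the same ratios, since each gene had 1. The count of genes highest in tendon 4 could not be computed without that tendon. No paired analysis was possible because all tendons form 1 group. Depth limits CHRND and CHRNG in tendon 1, at 18 and 33 estimated counts.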
